A study of Mus musculus with 24 samples.

Results

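The 10 genes described here encode the tuberous sclerosis complex (TSC), the mTOR complexes and the GTPase RHEB that links them: Tsc1, Tsc2, Tbc1d7, Rheb, Mtor, Mlst8, Rptor, Akt1s1, Rictor and Deptor. They were chosen by name as known parts of this pathway, though with earlier results of these data known. All 10 were found among the 55385 gene identifiers counted in the hippocampus of 24 mice. All mice were homozygous for a floxed Tsc1 allele and received tamoxifen. The 6 groups of 4 mice were Tsc1-Cre- controls without the Camk2a-CreERT2 transgene, taken on day 8, Tsc1-Cre+ mice with the transgene taken on day 4, 6, 8 or 13 after tamoxifen was started, and Tsc1-Cre+-Rap 4 mice, which received 10 mg/kg rapamycin daily from day 4 and were taken on day 13. The mice were adults of both sexes. The Camk2a promoter restricts Cre to CAMK2A-expressing, mainly excitatory, neurons, so the other cells of the hippocampus keep Tsc1. In whole tissue, fewer cells of a type and less RNA per cell cannot be told apart. The animal numbers place controls and day 8 mice in shared series and the remaining groups elsewhere. Day of sampling and cohort therefore cannot be told apart outside day 8. Against control, genotype is mixed with both on the other days. No Tsc1-Cre- mice received rapamycin, so Tsc1-Cre+-Rap 4 mice differ from controls in genotype, rapamycin, day and cohort. Between Tsc1-Cre+-Rap 4 and day 13 mice, rapamycin and cohort cannot be told apart.

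In cells, TSC1 (hamartin) stabilizes TSC2 (tuberin), whose GTPase-activating domain switches off the small GTPase RHEB, with TBC1D7 as the third subunit. RHEB bound to GTP activates the kinase mTOR in complex 1 (mTORC1), which contains raptor (Rptor), mLST8 and the inhibitory subunit PRAS40 (Akt1s1). In complex 2 (mTORC2), mTOR and mLST8 are joined to rictor instead, and DEPTOR binds and inhibits both. mTORC1 drives protein synthesis and cell growth and restrains autophagy and lysosome formation, and rapamycin inhibits it. Loss of either TSC1 or TSC2 leaves mTORC1 active, the basis of tuberous sclerosis complex, in which epilepsy is frequent. The study asked how the hippocampal transcriptome changes between deletion of Tsc1 and seizures and which changes rapamycin prevents. For the 10 genes here, the comparisons show which transcripts of the pathway itself differed between Tsc1-Cre+ and control mice, or with rapamycin on day 13. Among the comparisons with control, only that of day 8 was matched in day of sampling.

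Tsc1 was lower than control in all Tsc1-Cre+ groups, Akt1s1 was higher from day 6 and Rheb on day 13, and the other 7 of the 10 genes passed in no comparison of 2 groups. A test of any difference among the 6 groups (edgeR's quasi-likelihood F test on all 24 mice) passed for 4 of the 10 genes, against 41.9% of the 27110 genes tested. They were Tsc1 (edgeR adjusted p = 1.11e-08), Rheb (5.54e-07), Akt1s1 (4.07e-06) and Rictor (0.0203). Throughout, a gene passed at an adjusted p under 0.05 (edgeR, Benjamini-Hochberg adjustment over all genes tested), whatever the size of its fold change. All 10 genes passed the filter on low counts in every comparison, with 224 or more counts in each mouse. Levels are given as CPM, counts scaled to a common library size by TMM over the 24 mice.

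**Figure D1:**
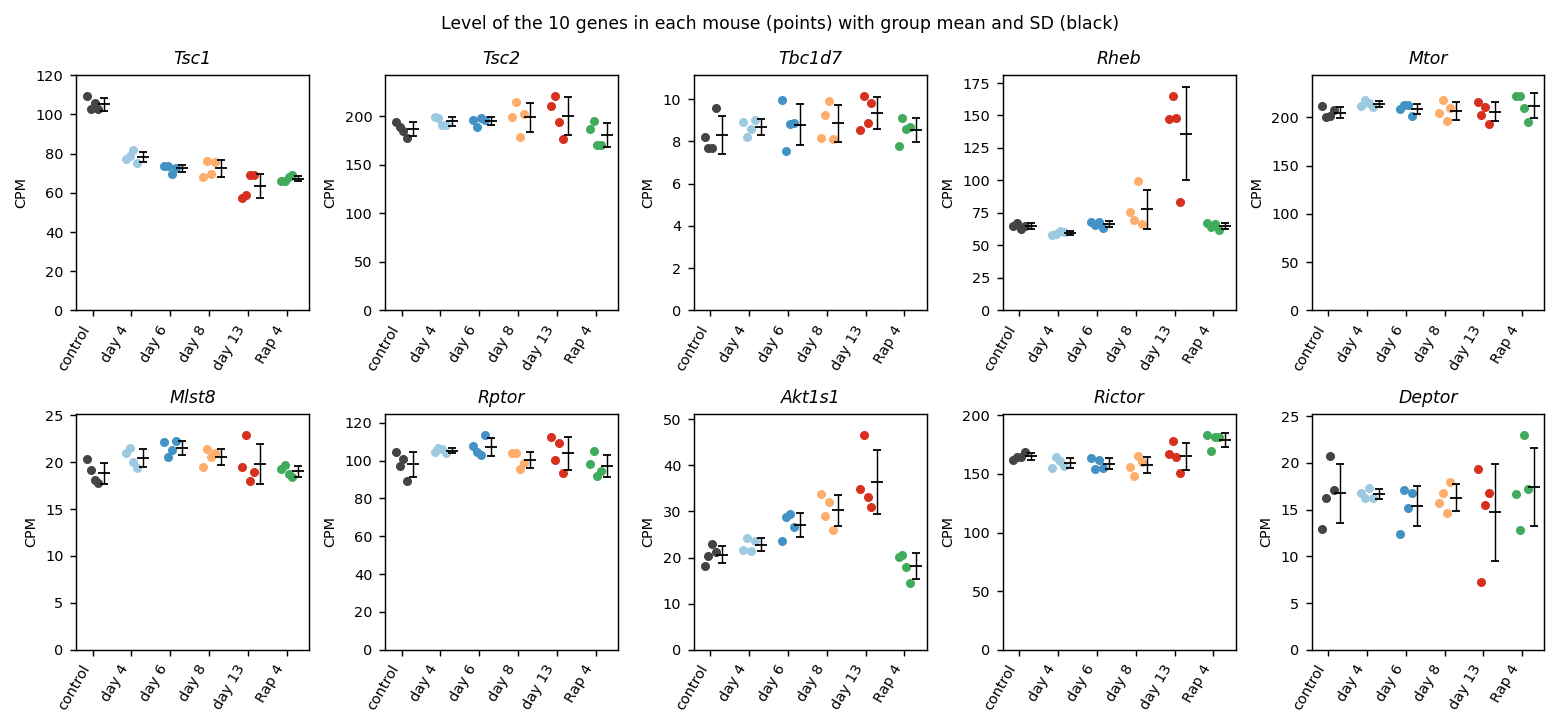
Level in CPM (y axes, from 0) of each of the 10 genes in the 6 groups (x axes); colored points are mice A to D from left to right and black marks are the group mean and SD. Tsc1 lay lower in all 20 Tsc1-Cre+ mice than in any control mouse, Akt1s1 was highest on day 13, and Rheb reached 147 to 165 CPM in 3 day 13 mice and 83.7 CPM in the fourth.

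Because the genes differ in length, their levels were compared with each other as CPM per kb of exon. The length of a gene was that of all its annotated exons merged. It can exceed the length of any single transcript, so the order of the genes depends in part on the annotation. In the 4 control mice, the transcripts of the kinase and of the GTPase-activating subunit that restrains it were the most abundant, Mtor at 20.3 ± 0.533 CPM per kb (SD, n = 4) and Tsc2 at 19.4 ± 0.739 CPM per kb. A middle group held Rictor at 9.75 ± 0.164, Tsc1 at 8.89 ± 0.271, Rheb at 8.41 ± 0.268, Rptor at 7.27 ± 0.499 and Akt1s1 at 6.72 ± 0.630 CPM per kb. Mlst8 lay at 4.25 ± 0.253, Tbc1d7 at 2.05 ± 0.221 and Deptor at 1.89 ± 0.359 CPM per kb. Transcripts of the TSC subunits differed in level in control tissue, with Tsc2 highest and Tbc1d7 lowest. On day 13, Rheb had reached 17.6 ± 4.64 CPM per kb and Akt1s1 11.8 ± 2.27 CPM per kb, while Tsc1 had fallen to 5.37 ± 0.523 CPM per kb.

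**Figure D2:**
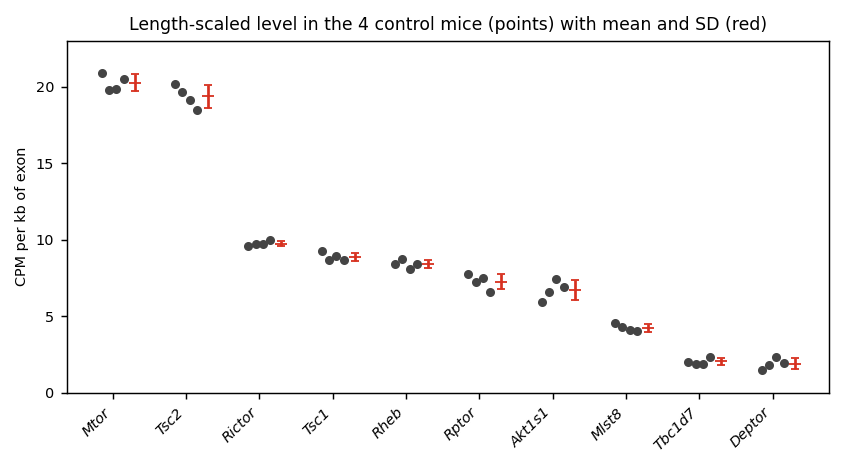
Length-scaled level (CPM per kb of exon, y axis from 0) of the 10 genes (x axis, in descending order) in the 4 Tsc1-Cre- control mice; points are mice and red marks the mean and SD. Mtor and Tsc2 stand at about the same level, above the other 8 genes, and Tbc1d7 and Deptor are lowest.

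Tsc1 (ENSMUSG00000026812.16; GRCm38 chromosome 2, 28641228 to 28691167, plus strand) is the deleted gene and was read in every mouse first. Control mice A to D had 109, 103, 106 and 103 CPM. Day 4 mice had 77.3, 79.0, 81.7 and 75.4 CPM, day 6 mice 73.6, 73.9, 69.7 and 72.9 CPM, and day 8 mice 68.2, 76.4, 69.4 and 76.0 CPM. On day 13 the values were 57.4, 59.0, 68.9 and 68.9 CPM, and in Tsc1-Cre+-Rap 4 mice 66.3, 66.0, 68.1 and 68.9 CPM. Every Tsc1-Cre+ mouse was below every control mouse, and day 4 lay above day 6 without overlap. Day 6 overlapped day 8 and lay above all day 13 and Rap 4 mice, and day 8, day 13 and Rap 4 overlapped one another. Tsc1 passed in all 5 comparisons with control, with log2 fold changes from -0.42 ± 0.04 (SE) on day 4 to -0.75 ± 0.08 on day 13 (edgeR adjusted p = 2.84e-04 and 6.36e-04). The mean was 74.5% of control on day 4, 60.4% on day 13 and 64.0% under rapamycin. Between Tsc1-Cre+-Rap 4 and day 13 the log2 difference was 0.09 ± 0.09 and did not pass (edgeR adjusted p = 0.437). The floxed allele loses internal exons, so reads from its other exons are still counted, as are those of cells without Cre.

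The partners of TSC1 did not follow it. Tsc2 (ENSMUSG00000002496.10; chromosome 17, 24595816 to 24632630, minus strand) had group means from 180.4 ± 12.2 CPM under rapamycin to 200.3 ± 19.5 CPM on day 13, against 186 ± 7.10 CPM in controls. Tbc1d7 (ENSMUSG00000021368.15; chromosome 13, 43151740 to 43171501, minus strand) ranged from 8.29 ± 0.892 CPM in controls to 9.34 ± 0.776 CPM on day 13. Neither gene passed in any of the 6 comparisons, and in each their groups overlapped. The log2 ratio of Tsc1 to Tsc2 within a mouse, which does not depend on library scaling, was -0.83 ± 0.04 (SD, n = 4) in controls. It was -1.31 ± 0.06 on day 4, -1.43 ± 0.06 on day 6, -1.45 ± 0.08 on day 8, and reached -1.66 ± 0.27 by day 13 and -1.42 ± 0.13 under rapamycin. All 5 groups lay below control without overlap (two-sided exact permutation test, p = 0.0286, the smallest that 4 mice against 4 allow, or 0.0571 adjusted over 24 such tests of 4 ratios). The 3' end of Tsc2 overlaps Pkd1 on the other strand over 7.2% of its exon length. The strand setting of the counting is not given in the sources used here, so reads of overlapping genes may not be separated. Pkd1 itself fell to 270 CPM on day 13 from 368 CPM in controls (log2 fold change -0.47, edgeR adjusted p = 0.00155).

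RHEB, the GTPase between the TSC complex and mTORC1, is encoded by Rheb (ENSMUSG00000028945.9; chromosome 5, 24802823 to 24842624, minus strand). Control mice A to D had 64.8, 67.4, 62.4 and 65.1 CPM, and day 4 mice had 58.2, 59.0, 60.8 and 60.4 CPM. Day 6 mice had 68.0, 65.4, 68.4 and 63.5 CPM, and day 8 mice had 75.9, 69.8, 99.5 and 66.6 CPM. Day 13 mice had 147, 165, 148 and 83.7 CPM, whereas Tsc1-Cre+-Rap 4 mice had 67.5, 64.3, 66.6 and 62.0 CPM. Mouse C stood above the rest on day 8 and mouse D below the rest on day 13, and all day 13 mice were above all control and all Rap 4 mice. On day 13 Rheb was 2.06-fold higher than in controls (log2 fold change 1.05 ± 0.17, edgeR adjusted p = 0.00292), and it was lower in Tsc1-Cre+-Rap 4 than on day 13 by a log2 fold change of -1.05 ± 0.17 (edgeR adjusted p = 0.00203). The day 13 fold change stayed between 0.95 and 1.22 on the log2 scale when each mouse was left out in turn. Against control, Rap 4 gave 0.00 ± 0.05 (adjusted p = 0.975, edgeR) and day 8 gave 0.25 ± 0.11 (adjusted p = 0.146, edgeR). On day 4 the 4 mice lay just below all control mice (log2 fold change -0.12 ± 0.04), which did not pass in edgeR (adjusted p = 0.0738) and passed in DESeq2 (adjusted p = 0.0427). In the order of group means, day 13 was followed by day 8, day 6, Rap 4, control and day 4, and only control and day 4 did not overlap among these neighbors (exact permutation p = 0.0286, or 0.357 adjusted over the 50 neighbor pairs of the 10 genes).

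Akt1s1 (ENSMUSG00000011096.17; chromosome 7, 44848991 to 44855421, plus strand) encodes PRAS40, an inhibitory subunit and substrate of mTORC1 that AKT also phosphorylates. Control mice A to D had 18.3, 20.2, 22.9 and 21.2 CPM, and day 4 mice had 21.6, 24.3, 21.4 and 23.7 CPM. Day 6 mice had 23.7, 28.8, 29.4 and 26.6 CPM, and day 8 mice had 33.9, 29.1, 31.9 and 26.0 CPM. Day 13 mice had 34.8, 46.5, 33.1 and 30.9 CPM, and Tsc1-Cre+-Rap 4 mice had 20.1, 20.5, 17.9 and 14.4 CPM. Control and day 4 overlapped, all mice of the 3 later groups without rapamycin lay above the controls, and the Rap 4 values overlapped those of the controls. The group mean was 110% of control on day 4, 131% on day 6, 146% on day 8, 176% on day 13 and 88.2% under rapamycin. Akt1s1 passed on day 6 (log2 fold change 0.38 ± 0.08, edgeR adjusted p = 0.00783), day 8 (0.53 ± 0.09, 0.00405) and day 13 (0.79 ± 0.12, 0.00251). It was lower in Rap 4 than on day 13 (log2 fold change -0.98 ± 0.15, edgeR adjusted p = 0.00154). The day 6 call was lost in a fit of all 24 mice, where the edgeR adjusted p was 0.118. Neighboring groups in the order of Akt1s1 levels (day 13, day 8, day 6, day 4, control, Rap 4) all overlapped. Over 2.9% of its exon length Akt1s1 overlaps Tbc1d17 on the other strand, and Tbc1d17 was lower on day 13 (log2 fold change -0.40, edgeR adjusted p = 0.0186).

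The day 8 mouse with the most Rheb, mouse C, also had the highest summed level of astrocyte markers in its group. So did day 13 mouse B, which had the most Rheb and Akt1s1. The order did not match throughout. On day 8 the most Akt1s1 was in mouse A (33.9 CPM), not in mouse C (31.9 CPM). On day 13 Rheb was lowest in mouse D (83.7 CPM) and the astrocyte sum in mouse C. The summed level of 5 astrocyte markers, all detected in every group, was 1047 to 1087 CPM in controls. It was 1356, 830.2, 1677 and 889 CPM in day 8 mice A to D and 1467, 2087, 1153 and 1217 CPM in day 13 mice A to D. In Tsc1-Cre+-Rap 4 mice it was 834 to 886 CPM. Of the 5 markers, the intermediate filament gene Gfap had the largest differences in group mean, with 189 CPM in controls and 466, 729 and 111 CPM in day 8, day 13 and Rap 4 mice. 2 others had lower means than in controls, Gja1 at 177, 121 and 94.1 CPM and Slc1a3 at 491, 380 and 430.4 CPM in control, day 8 and day 13 mice. The sum of 6 markers of CAMK2A-type excitatory neurons was 2500 to 3273 CPM in controls. It was 3244 to 3656 CPM on day 4 and 3136 to 3492 CPM on day 6. On day 8 it was 2513 to 3596 CPM, with 2765 to 3848 CPM on day 13 and 2357 to 3212 CPM under rapamycin. The part of either cell type in the levels of Rheb and Akt1s1 was not tested. Choroid plexus markers varied more than 10-fold between mice of one group, and with Ttr, a transcript of that epithelium, as a covariate the same number of the 10 genes passed in each comparison.

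The promoters of Rheb and Akt1s1, the members that rose, and of Mtor, which did not, are shown side by side. They are RefSeq windows on GRCm38.p6 from 250 bases before to 50 bases after the annotated start, 5′ to 3′ on the gene's strand. Rheb lies at chr5:24842312-24842611 on the minus strand, Akt1s1 at chr7:44850122-44850421 on the plus strand and Mtor at chr4:148448332-148448631 on the plus strand. Capitals mark every match, on either strand, to CACGTG (an E-box bound by TFEB and other basic helix-loop-helix factors), TGACG (the core of the site bound by CREB and ATF factors), GGGCGG (a GC box) and CCAAT.
Rheb: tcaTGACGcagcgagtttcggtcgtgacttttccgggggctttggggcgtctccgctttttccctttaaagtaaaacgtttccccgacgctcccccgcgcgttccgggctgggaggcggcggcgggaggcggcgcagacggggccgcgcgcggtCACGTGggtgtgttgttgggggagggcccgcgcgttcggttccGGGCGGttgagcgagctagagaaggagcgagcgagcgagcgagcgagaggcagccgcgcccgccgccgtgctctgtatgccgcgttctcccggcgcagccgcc
Akt1s1: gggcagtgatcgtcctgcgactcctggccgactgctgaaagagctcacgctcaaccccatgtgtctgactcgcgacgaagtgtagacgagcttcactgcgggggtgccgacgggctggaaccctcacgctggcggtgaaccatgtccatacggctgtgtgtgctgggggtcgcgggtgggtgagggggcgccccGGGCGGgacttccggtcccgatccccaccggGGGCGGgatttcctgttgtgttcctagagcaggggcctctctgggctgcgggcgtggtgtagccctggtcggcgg
Mtor: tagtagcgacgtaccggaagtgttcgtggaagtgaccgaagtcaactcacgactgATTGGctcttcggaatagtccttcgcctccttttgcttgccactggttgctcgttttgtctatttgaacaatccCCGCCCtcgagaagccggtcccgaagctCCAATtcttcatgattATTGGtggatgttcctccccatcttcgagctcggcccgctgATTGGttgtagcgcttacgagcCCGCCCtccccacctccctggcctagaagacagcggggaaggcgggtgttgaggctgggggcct
The Rheb window holds TGACG at -247, CACGTG at -96 and GGGCGG at -53, counted from the start site to the first base of the match. Akt1s1 holds 2 GC boxes, at -56 and -25, and Mtor holds 2 GC boxes and 4 CCAAT boxes. Neither Akt1s1 nor Mtor has CACGTG or TGACG in its window. Of 32851 RefSeq promoters of the same length, 7.15% hold CACGTG, 20.8% TGACG, 35.7% GGGCGG and 37.4% CCAAT. Among the 9 members with a window in that set, 2 hold CACGTG (Tbc1d7 and Rheb), 5 hold TGACG and 4 hold GGGCGG. The longer sites TGACGTCA and TGATGNAA, present in 1.79% and 3.97% of all promoters, were in none of the 9. The annotated Rheb and Akt1s1 starts of these windows lie inside the gene spans given above. Both spans reach upstream of the window, so a second start upstream is not covered for either gene.

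The kinase, its shared subunit and raptor passed in no comparison of 2 groups. Mtor (ENSMUSG00000028991.15; chromosome 4, 148448611 to 148557683, plus strand) had the narrowest range of the 10 genes, with group means from 205 ± 5.39 CPM in controls to 214 ± 3.11 CPM on day 4, a ratio of 1.04. Its log2 fold changes ran from -0.02 ± 0.06 on day 13 to 0.06 ± 0.03 on day 4, and none passed. Mlst8 (ENSMUSG00000024142.15; chromosome 17, 24473551 to 24479078, minus strand), a subunit of both complexes, was 18.8 ± 1.12 CPM in controls and highest on day 6 at 21.5 ± 0.773 CPM. Its 4 day 6 mice, at 22.1, 20.6, 21.2 and 22.2 CPM, all lay above the control mice, at 20.3, 19.1, 18.1 and 17.8 CPM. The gap between the highest control and the lowest day 6 mouse was small, and the log2 fold change of 0.18 ± 0.06 did not pass in edgeR (adjusted p = 0.0675). It passed in DESeq2 (adjusted p = 0.0250) and, in edgeR, without control mouse A (adjusted p = 0.0298). Bricd5 shares 22.48% of the exon length of Mlst8 on the other strand and was listed at 0 in every group. Rptor (ENSMUSG00000025583.15; chromosome 11, 119602905 to 119899576, plus strand), the scaffold that brings substrates to mTORC1, had group means from 97.3 ± 5.78 CPM under rapamycin to 107 ± 4.67 CPM on day 6 and passed in no comparison.

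Rictor (ENSMUSG00000050310.9; chromosome 15, 6708379 to 6800401, plus strand), which defines mTORC2, was the only gene of the 10 with its highest mean and no overlap with control under rapamycin. Tsc1-Cre+-Rap 4 mice A to D had 183, 169.9, 181 and 182 CPM, and control mice had 162, 164, 165 and 169 CPM. Day 13 mice had 167, 178, 164 and 150 CPM, overlapping both. The log2 fold change of Rap 4 against control was 0.12 ± 0.04 and did not pass in the comparison of these groups (edgeR adjusted p = 0.167), though the exact permutation p of 0.0286 was the smallest possible (0.357 adjusted over the 50 neighbor pairs). Against day 13 it was 0.13 ± 0.07 (edgeR adjusted p = 0.166), which became 0.0492 in a fit of all 24 mice. Rictor passed the test over 6 groups, but not without the filter on low counts (edgeR adjusted p = 0.0645). The log2 ratio of Rictor to Rptor within a mouse was 0.75 ± 0.12 (SD, n = 4) in controls and 0.60 ± 0.02 on day 4, where the groups did not overlap (exact permutation p = 0.0286, adjusted 0.0571), and 0.88 ± 0.13 under rapamycin, which overlapped control (exact permutation p = 0.257).

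Deptor (ENSMUSG00000022419.16; chromosome 15, 55112317 to 55259271, plus strand), the inhibitor of both complexes, ranged more widely between mice of a group than between group means, except on day 4. The day 4 mice lay between 16.2 and 17.3 CPM. Its mean was 16.7 ± 3.19 CPM in controls, 14.7 ± 5.20 CPM on day 13 and 17.4 ± 4.17 CPM under rapamycin. Day 13 mice A to D had 19.3, 7.28, 15.4 and 16.8 CPM, so that mouse B held less than any other mouse. Mouse B was also the most deeply sequenced, with 126435936 counts. No comparison passed for Deptor.

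**Figure D3:**
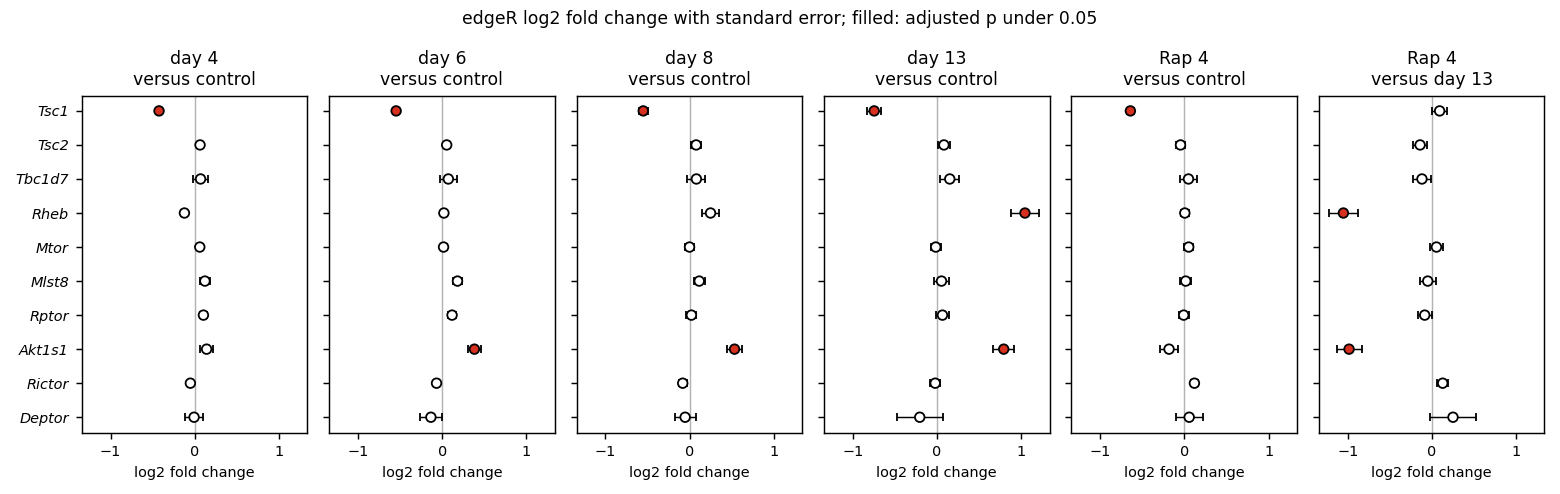
Log2 fold change (x axes) with its standard error of the 10 genes (y axis) in the 6 comparisons, 1 per panel, from edgeR fits to the 8 mice of each; filled points have an adjusted p under 0.05. Tsc1 is filled in the 5 comparisons with control, Akt1s1 on day 6, 8 and 13, Rheb on day 13, and Rheb and Akt1s1, both lower, for Rap 4 against day 13.

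Counted over the 10 genes, 1 passed on day 4 (Tsc1), where 4.16% of all genes tested passed. On day 6 there were 2 (Tsc1 and Akt1s1) against 10.1% of all genes, on day 8 the same 2 genes against 13.3%, and on day 13 there were 3 with Rheb against 26.9%. For Rap 4 against control 1 passed (Tsc1) against 3.57%, and for Rap 4 against day 13 there were 2 (Rheb and Akt1s1) against 30.8%. Leaving out the deleted gene, the share of the remaining genes that passed was near or below that of all genes in each of the 6 comparisons. The median log2 fold change of the 10 genes lay between -0.07 and 0.06 in the 6 comparisons, and that of all genes between -0.04 and 0.02. Groups did not overlap for 2, 3, 2, 3, 2 and 2 of the 10 genes in the comparisons in the order given, against 11.7%, 16.0%, 20.4%, 30.8%, 11.9% and 32.7% of all genes. The comparisons with control share the 4 control mice, and those with day 13 share the day 13 mice. Lower genes alone, as Tsc1 was, made up 1.56% of all genes on day 4, 3.81% on day 6 and 4.87% on day 8. Under the study's added minimum of 0.5 on the log2 scale, the counts of the 10 genes were 0, 1, 2, 3, 1 and 2, against 0.68%, 1.32%, 3.99%, 16.5%, 1.41% and 21.1% of all genes. Without TMM scaling the median of all genes on day 13 moved by -0.14 on the log2 scale. The small differences of Tsc2, Mtor, Mlst8 and Rptor from control in mean log2 CPM therefore changed sign. Tsc1, Rheb and Akt1s1 kept theirs, at -0.87, 0.88 and 0.66.

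**Figure D4:**
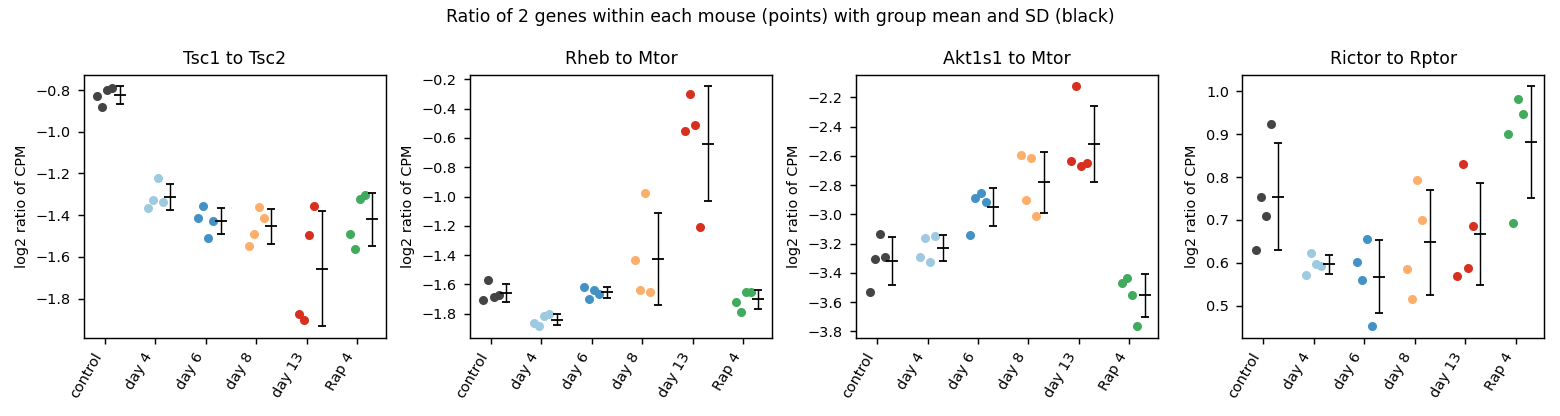
Log2 ratio of the CPM of 2 genes within each mouse (y axes) in the 6 groups (x axes); points are mice A to D from left to right and black marks the mean and SD. The ratio of Rheb to Mtor was -1.66 in controls, -0.64 on day 13 and -1.70 in Rap 4, and that of Akt1s1 to Mtor was -3.32 in controls, -2.52 on day 13 and -3.55 in Rap 4.

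Rheb and Akt1s1 were also set against the kinase within each mouse, where library scaling plays no part. The log2 ratio of Rheb to Mtor was -1.66 ± 0.06 (SD, n = 4) in controls and -1.84 ± 0.04 on day 4. It was -1.43 ± 0.32 in day 8 mice, -0.64 ± 0.39 in day 13 mice and -1.70 ± 0.06 under rapamycin. For Akt1s1 to Mtor the controls had -3.32 ± 0.16 and the day 4 mice -3.23 ± 0.09. Day 6 mice had -2.95 ± 0.13 and overlapped the controls (exact permutation p = 0.0571, 0.0914 adjusted over the 24 tests). The ratio was -2.78 ± 0.21 for day 8, without overlap with control, -2.52 ± 0.26 for day 13 and -3.55 ± 0.15 for Rap 4. Day 13 differed from control and from Rap 4 without overlap for both ratios (exact permutation p = 0.0286 each, 0.0571 adjusted over the 24 tests). None of the 24 tests of ratios fell under 0.05 after adjustment.

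Around this core, 61 further genes of the pathway were counted by role, all tested in every comparison. Their lists, too, were chosen with earlier results of these data known. On day 4, 14 passed, all higher, against 2.61% of all genes passing as higher. On day 6 it was 17, all higher, against 6.24%, and on day 8 it was 19, all higher, against 8.41%. On day 13, 21 were higher, against 15.6% of all genes, and 3 lower, against 11.3%. For Rap 4 against control 5 were higher and 3 lower, against 1.26% and 2.31%. For Rap 4 against day 13, 18 were lower and 3 higher, against 17.7% and 13.1%. Against control, the 61 genes had a median log2 fold change of 0.05 for day 4, 0.06 for day 6, 0.09 for day 8, 0.06 for day 13 and 0.03 for Rap 4. The count was least stable on day 4, where it was 3 in a fit of all 24 mice, 6 with Xist as a covariate, 9 without control mouse B, 7 without control mouse D, 9 without day 4 mouse A and 5 without day 4 mouse B. For Rap 4 against control it was 4 without control mouse B, C or D or Rap 4 mouse C and 5 without Rap 4 mouse A or B. In the fit of all 24 mice the day 6 count was 5 and that of Rap 4 against day 13 was 33.

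**Figure D5:**
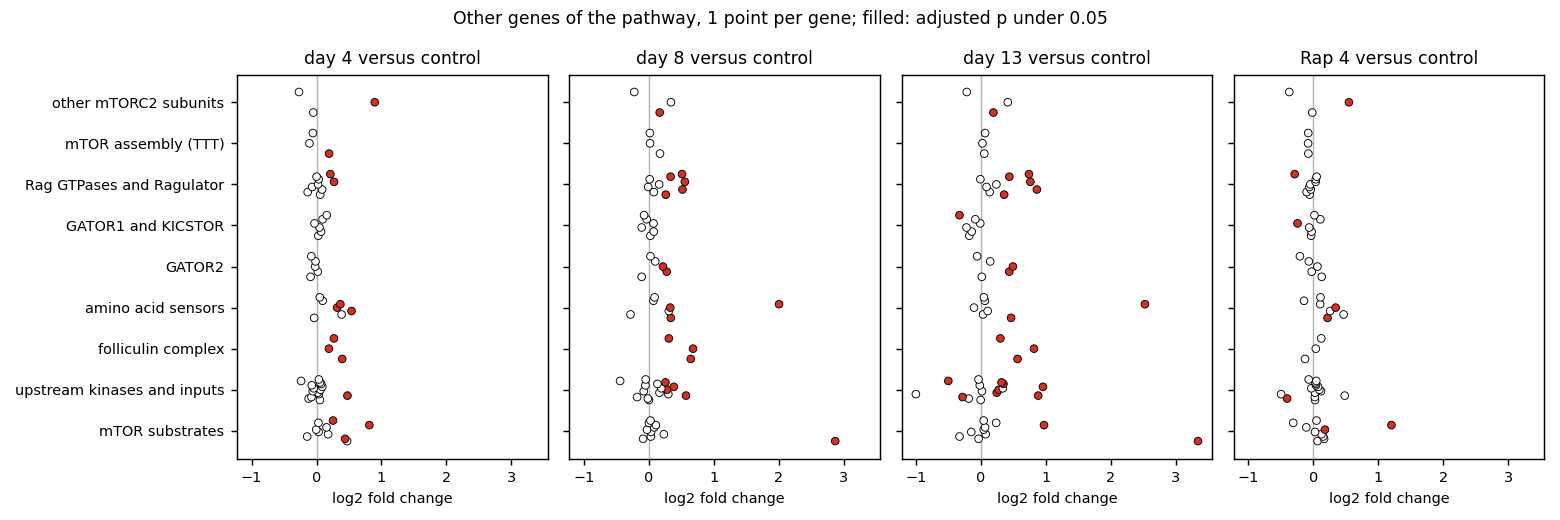
Log2 fold change (x axes) of 61 further pathway genes, 1 point per gene, by role (y axis) for day 4, day 8, day 13 and Rap 4 against control; filled points have an adjusted p under 0.05. The 2 points farthest right on day 8 and day 13 are Eif4ebp1 and Sesn2, and all 3 genes of the folliculin complex are filled and right of 0 on day 4, 8 and 13 but not in Rap 4.

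All 3 genes of the folliculin complex, a GTPase-activating complex for the Rag GTPases RagC and RagD, were higher at every time point without rapamycin. Flcn had 45.1 ± 1.77 CPM in controls, 62.3 ± 2.46 CPM by day 6 and 71.2 ± 3.26 CPM in day 8 mice (a log2 fold change of 0.65 ± 0.05, edgeR adjusted p = 6.52e-05). Fnip1, its partner, rose from 99.0 ± 1.96 to 160.3 ± 17.2 CPM on day 8 (0.68 ± 0.07, edgeR adjusted p = 3.17e-04). Fnip2, named after its values were seen, had log2 fold changes of 0.27 on day 4 and 0.30 on day 13. None of the 3 passed for Rap 4 against control. Against day 13, Flcn and Fnip1 were lower in Rap 4, whereas Fnip2 did not pass (-0.19 ± 0.08, edgeR adjusted p = 0.0916) and at 61.0 ± 3.91 CPM lay between control (56.2 CPM) and day 13 (70.0 CPM). Of 9 genes of the Rag GTPases and Ragulator, which hold mTORC1 at the lysosome, 2 were higher on day 4, 4 on day 6, and 5 each on day 8 and 13, against 2.61%, 6.24%, 8.41% and 15.6% of all genes. Rragd, which encodes RagD, was 178 ± 42.5 CPM on day 13 and 86.2 ± 4.69 CPM in Rap 4 (log2 fold change -1.04 ± 0.15, edgeR adjusted p = 0.00139), below its control level of 105 ± 5.36 CPM (-0.29 ± 0.05, edgeR adjusted p = 0.0106). Lamtor3, a Ragulator subunit, was lower in Rap 4 than on day 13 by a log2 fold change of -0.91 ± 0.15 (edgeR adjusted p = 0.00248).

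Among the nutrient and stress inputs, Sesn2, which encodes the leucine sensor sestrin 2, had a higher mean at each later day. It had 11 ± 0.560 CPM in controls and 21.7 ± 2.04 CPM by day 6. The level was 44.6 ± 7.61 CPM in day 8 mice, 64.3 ± 20 CPM in day 13 mice and 11.9 ± 1.43 CPM in Rap 4. The log2 fold change was 2.52 ± 0.18 on day 13 (edgeR adjusted p = 1.25e-04) and that of Rap 4 against day 13 was -2.43 ± 0.19 (edgeR adjusted p = 1.35e-04). Sesn1 was higher than in controls on day 4 (0.32 ± 0.04, edgeR adjusted p = 0.00114), day 6 (0.43 ± 0.04, 1.37e-05) and day 8 (0.33 ± 0.08, 0.0195). It was also higher in Rap 4 (0.34 ± 0.04, edgeR adjusted p = 0.00148). On day 13 it did not pass, at 50.4 ± 27.3 CPM against 53.7 ± 0.935 CPM (-0.11 ± 0.32, edgeR adjusted p = 0.825). Castor2, an arginine sensor family member, was higher on day 4 (0.54 ± 0.09, edgeR adjusted p = 0.00746) and day 6 (0.49 ± 0.08, 0.00223) but did not pass on day 8 or 13. Ddit4, which encodes REDD1, an activator of the TSC complex under stress, rose from 24.3 ± 3.69 CPM to 33.9 ± 5.16 CPM on day 4 and 45.4 ± 8.87 CPM on day 13 (log2 fold change 0.88 ± 0.16, edgeR adjusted p = 0.00433). Prkab2, a subunit of the energy sensor AMPK, was 89.4 ± 20.2 CPM on day 13 and 45.5 ± 2.17 CPM in controls (0.95 ± 0.14, edgeR adjusted p = 0.00180). The kinase gene Akt2 was lower in Rap 4 than in controls (-0.40 ± 0.07, edgeR adjusted p = 0.00845).

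Of 10 substrate genes, the translation repressor gene Eif4ebp1 (4E-BP1) had the largest log2 fold changes on day 6, 8 and 13. It had 1.09 ± 0.148 CPM in controls and 2.29 ± 0.605 CPM by day 6. The level was 8.11 ± 4.17 CPM in day 8 mice, 11.3 ± 7.83 CPM in day 13 mice and 1.14 ± 0.256 CPM in Rap 4. Its log2 fold change was 3.34 ± 0.44 on day 13 (edgeR adjusted p = 0.00114) and -3.29 ± 0.44 for Rap 4 against day 13 (edgeR adjusted p = 9.68e-04). Its relative Eif4ebp2 was higher on day 4 (0.44 ± 0.08, edgeR adjusted p = 0.0129) and day 6 but did not pass on day 8 or 13. Sgk1, a kinase phosphorylated by mTORC2, had 77.7 ± 15.4 CPM in controls and 136 ± 12.5 CPM in day 4 mice. It had 82.4 ± 17.1 CPM on day 6 and 84.5 ± 6.70 CPM on day 8, neither of which passed, with log2 fold changes of 0.07 and 0.11 (edgeR adjusted p = 0.805 and 0.602). The level was 154 ± 27.9 CPM in day 13 mice and 179 ± 17.0 CPM in Rap 4, where the log2 fold change was 1.20 ± 0.12 (edgeR adjusted p = 3.14e-04). Prr5, which encodes the mTORC2 subunit protor 1, was higher on day 4 (0.90 ± 0.13, edgeR adjusted p = 0.00419) and in Rap 4 (0.55 ± 0.14, 0.0461) but did not pass on day 6, 8 or 13. The levels of other mTORC2 subunits and of the proteins that assemble mTOR passed for at most 1 of 3 genes in any comparison with control. Rhebl1, the paralog of Rheb, named after its values were seen, was 4.55 CPM in controls and 3.24 CPM on day 13 (log2 fold change -0.50, edgeR adjusted p = 0.0170).

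The genes whose log2 CPM over the 24 mice was most like that of each member were ranked by Pearson's r among 16358 protein-coding genes, as a description over mice that share groups. For Rheb they were Rgs2 (r = 0.98), Plk2 (0.97) and Ccn1 (0.97), and for Akt1s1 Atp6v0b (0.96), Fem1a (0.96) and Tbc1d13 (0.96). Tsc1 was most like Zeb1 (0.87), Lrp4 (0.86) and Ntn4 (0.83), and Rictor most like Ppp4r3b (0.93), Rbm39 (0.92) and Epc2 (0.91). For Rptor the first was Rapgef1 (0.87), followed by Bsn and Phrf1, for Tsc2 Ppp6r1 (0.84), followed by Mapk8ip3 and Mfhas1, and for Deptor Nrep (0.88), followed by Atp10b and Lama3. Mtor, Mlst8 and Tbc1d7 had lower first values, of 0.80 with 1700017B05Rik, 0.74 with Nfxl1 and 0.76 with Commd2. Their next genes were Cdc42bpb and Cep170b for Mtor, Ptgr1 and Telo2 for Mlst8, and Brf2 and B3gnt2 for Tbc1d7. Rheb and Akt1s1 correlated with each other at r = 0.74 over the 24 mice.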

How the data were processed

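RNA of the hippocampus was sequenced from 24 mice, 4 in each of 6 groups, taken from the sample labels. The authors made stranded libraries of rRNA-depleted total RNA, aligned them to mm10 (GRCm38) and deposited whole-number read counts per GENCODE gene, without normalization. The submitters' processing notes name cutadapt 1.16.5, STAR 2.7.2b and featureCounts 1.6.4, and the strand setting of the counting is not given in the sources used here. Names, coordinates and exon lengths come from GENCODE M21, an earlier release than the authors' on the same build, in which 55144 of 55385 identifiers were found. Total counts per mouse ranged from 28208561 to 126435936, and no libraries held identical values.

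Counts were tested in R 4.3.3 with edgeR 4.0.16 (glmQLFit and glmQLFTest, TMM, filterByExpr), fitted to all genes on the 8 mice of each comparison, with Benjamini-Hochberg adjustment over all genes tested and a threshold of 0.05. For single values, exact permutation tests (two-sided) ran over the 70 arrangements of 4 mice against 4. Log2 CPM used a prior count of 2. The scripts were tested on simulated data. The pathway genes named were, per comparison, at most the 5 with the largest absolute log2 fold change among those that passed, and for each member the 3 genes of highest correlation. Alternatives were DESeq2 1.42.0, its size factors, no filter, all 24 mice in 1 fit, the study's fold minimum, the replicate letter or series of animal numbers as a block, Xist as a covariate, CPM without TMM and each mouse left out. Ratios within mice and Ttr as a covariate were chosen after seeing the data. The members and lists were chosen with earlier results of these data known. Some of the genes counted are not reported by name here.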

Additional observations from a re-analysis of the deposited data

Results flagged for a closer look

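Among the 10 genes and 6 groups, 1 mouse stood apart from the others of its group. Rictor in Tsc1-Cre+-Rap 4 mouse B was 169.9 CPM, whereas mice A, C and D lay between 181 and 183 CPM, so the gap took 0.89 of the range of the group (Dixon's test at the 95% level). Chance flags about 1 in 20 groups, and 60 were examined. Without this mouse, Rictor still passed the test over 6 groups (edgeR adjusted p = 0.00950).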

How the results depend on the processing

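Of 910 alternative values of the log2 fold changes of the 10 genes, 905 kept their side of the threshold and none of those past it reversed. The changes were Akt1s1 on day 6, lost in a fit of all 24 mice (edgeR adjusted p = 0.118), and 4 gains, Rheb on day 4 and Mlst8 on day 6 in DESeq2, Mlst8 on day 6 without control mouse A and Rictor for Rap 4 against day 13 in the fit of all 24 mice. The count of the 10 genes was 2 in DESeq2 on day 4, 1 in the fit of all 24 mice on day 6, and 0 on day 4 and 1 on day 6 with the fold minimum of 0.5. Without each mouse in turn, the count of the 61 pathway genes ran from 5 to 13 on day 4 and from 4 to 6 for Rap 4 against control. With the fold minimum it was 3 on day 4, 3 on day 6, 8 on day 8, 11 on day 13, 2 for Rap 4 against control and 10 for Rap 4 against day 13. In the fit of all 24 mice it was 3 on day 4, 5 on day 6, 3 for Rap 4 against control and 33 for Rap 4 against day 13, and with Xist as a covariate 6 on day 4 and 5 for Rap 4 against control. The cause of these shifts was not tested. Without TMM, Mtor on day 13 lay below control by -0.14 on the log2 scale in place of 0.00, a shift shared with the median of all genes (-0.14), relative to which Mtor was at 0.04. The replicate letters do not pair the mice: same-letter deviations correlated between -0.121 and 0.0883 over 24 pairs. With the replicate block the 10 genes gave 1, 2, 2, 3, 1 and 2 calls on day 4, 6, 8 and 13 and for Rap 4 against control and day 13, and the pathway genes 14, 14, 17, 22, 6 and 17. For Deptor the SE of the log2 fold change ran from 0.11 on day 4 to 0.28 for Rap 4 against day 13.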
